A study of Mus musculus with 6 samples.

Results

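The genes described here form the folding, quality control and export machinery of the endoplasmic reticulum (ER), the compartment in which secreted proteins are made. The set held 37 genes chosen by name, out of 55536 gene rows in the count matrix, and 36 of the 37 had enough counts to be among the 15712 genes tested. Trib3 was the member left out by the filter on low counts. The symbol Ddit3 stands on 2 rows, and the second one had 0 counts in every library and was not used. RNA was sequenced from limb bone perichondrium, the fibrous layer around cartilage, of mice aged 4 days. The 3 knockout libraries came from Fbn1Scx-/- mice and carry ScxCRE or Koscx in their titles, and the 3 control libraries came from wild-type (WT) mice. Scx encodes scleraxis, a transcription factor of tendon and ligament, and in such a design its promoter drives the Cre recombinase. Fbn1 encodes fibrillin-1, the main protein of extracellular microfibrils. The labels do not say whether the wild-type mice carried the Cre, which exons were deleted or whether each library is a separate animal, so the p-values cover the spread among 6 libraries, which may be technical. The libraries are called mut-596, mut-597, mut-795, WT-596, WT-597 and WT-795 after their titles, and values per library are listed in that order.

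Secreted proteins enter the ER through the Sec61 channel, fold with the help of chaperones and disulfide isomerases, and leave in COPII-coated vesicles, while KDEL receptors bring escaped chaperones back. When unfolded protein builds up, 3 sensors in the ER membrane, encoded by Atf6, Ern1 and Eif2ak3, start the unfolded protein response (UPR), which raises chaperone and degradation genes through ATF6 and XBP1 and amino acid and stress genes through ATF4 and CHOP. Connective tissue cells such as those of the perichondrium secrete large amounts of collagen, and CREB3L1, SEC23A, SEC24D and MIA3 are known for their part in procollagen export.

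Part of the set shares a short element upstream of the gene start, which is shown as a feature of the sequence. The members were chosen by name for known roles in the ER and the UPR. A high share of the element among them is therefore not independent support, and a match does not show that it acts in this tissue. RefSeq promoter windows of GRCm38.p6, from 250 bases before to 50 bases after the start, were matched by symbol for 32 of the 37 members. Those without a window were Creb3l1, Atf6, Hyou1, Manf and Kdelr2. The ER stress response element (ERSE), searched on both strands as CCAAT, any 9 bases and CCACG, was in 7 of the 32 member windows and in 35 of all 27025 windows (0.13%). The matching stretches follow on the gene's strand, 5′ to 3′, with the element in capitals and 10 bases on each side. Calr and the second Hsp90b1 match hold it in reverse, as the reverse complement.
Hspa5, chr2:34772015-34772053, plus strand: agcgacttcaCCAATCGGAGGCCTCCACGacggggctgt
Hsp90b1, chr10:86705628-86705666, minus strand: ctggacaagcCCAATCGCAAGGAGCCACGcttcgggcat
Hsp90b1, chr10:86705523-86705561, minus strand: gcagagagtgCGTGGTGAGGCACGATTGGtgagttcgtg
Calr, chr8:84847065-84847103, minus strand: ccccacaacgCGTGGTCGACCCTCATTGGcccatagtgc
Canx, chr11:50325790-50325828, minus strand: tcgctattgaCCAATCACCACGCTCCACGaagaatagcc
Pdia6, chr12:17266481-17266519, plus strand: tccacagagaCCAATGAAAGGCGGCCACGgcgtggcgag
Dnajc3, chr14:118937817-118937855, plus strand: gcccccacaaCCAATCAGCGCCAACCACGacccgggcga
Syvn1, chr19:6046522-6046560, plus strand: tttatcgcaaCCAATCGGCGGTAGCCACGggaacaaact

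The related ERSE-II, searched as ATTGG, any 1 base and CCACG, was in 2 member windows and in 10 of all windows (0.037%). The 2 members were Dnajb11, where it lay just after the start, and Herpud1. An ATF4-type element, TGATGNAA, was in 4 of 32 member windows against 4.06% of all windows. The 4 were Asns, Chac1 and Herpud1, shown next, and Trib3, where it lay after the start. Chac1 and Herpud1 hold the ATF4-type element in reverse, so its capitals there read as the reverse complement. The stretch CCACG of ERSE also lies within ERSE-II and within the reverse of the XBP1-type element TGACGTGG, which was in 3 member windows (Sec23a, Sec24d and Kdelr3) and 0.607% of all windows. The cyclic AMP element TGACGTCA was in the window of Ppp1r15a and in 1.88% of all windows.
Herpud1 ERSE-II, chr8:94386367-94386397, plus strand: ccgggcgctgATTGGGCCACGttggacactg
Asns ATF4-type, chr6:7693215-7693242, minus strand: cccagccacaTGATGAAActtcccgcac
Chac1 ATF4-type, chr2:119351039-119351066, plus strand: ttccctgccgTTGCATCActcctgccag
Herpud1 ATF4-type, chr8:94386307-94386334, plus strand: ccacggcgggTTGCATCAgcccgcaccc

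Levels are given in CPM, counts scaled to a common library size with TMM factors, and levels of different genes are compared only as CPM per kilobase of exon. In wild-type perichondrium the highest member was Kdelr2, a KDEL receptor, at 317 ± 120 CPM per kilobase (SD, n = 3). Sec61b, a subunit of the translocation channel, followed at 279 ± 18.6 CPM per kilobase, within the spread of Kdelr2. P4hb, the disulfide isomerase that is also the beta subunit of collagen prolyl hydroxylase, stood at 167 ± 26.0 CPM per kilobase. Next came Kdelr3 at 95.4 ± 17.0, the lectin chaperone Calr at 89.1 ± 10.9 and the HSP90 paralog Hsp90b1 at 78.8 ± 23.5 CPM per kilobase, which lay within each other's spread. Hspa5, which encodes the main ER chaperone BiP, was at 51.8 ± 7.47 and Canx at 51.4 ± 12.5 CPM per kilobase. The sensors were far lower, with Eif2ak3 at 1.51 ± 0.162, Atf6 at 1.16 ± 0.251 and Ern1 at 0.545 ± 0.0874 CPM per kilobase. The stress targets Sesn2 and Trib3 stood at 0.577 ± 0.0855 and 0.456 ± 0.0887. Kdelr2 stood higher than 98.6% of the genes tested and Ern1 higher than 10.4%.

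**Figure D1:**
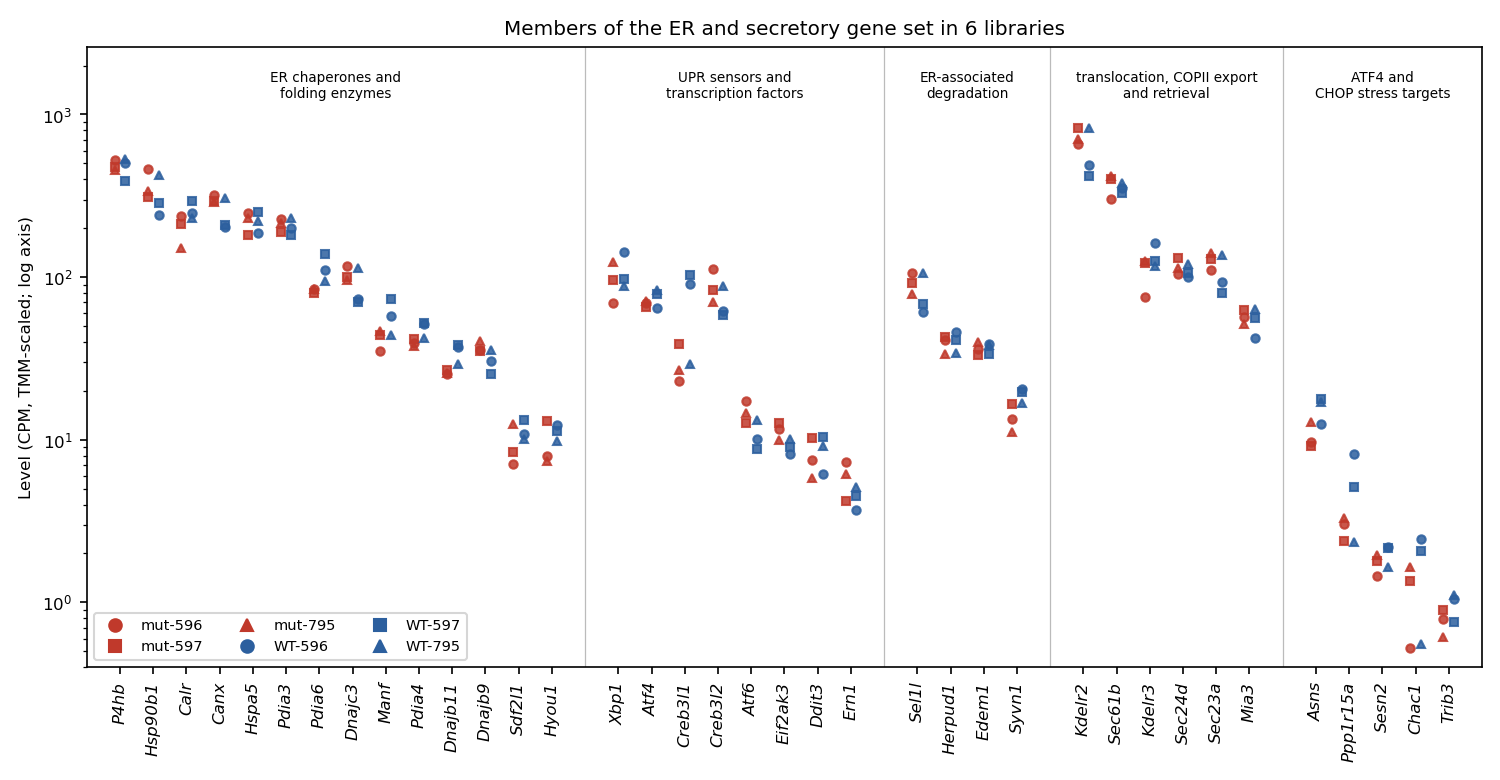
Level of each of the 37 members in each library, in TMM-scaled CPM on a log axis, ordered within 5 roles by the wild-type mean (red, knockout; blue, wild type; marker shape, title number). Creb3l1 separates mut-596, mut-597 and mut-795 from WT-596 and WT-597, while WT-795 at 29.2 CPM sits among the knockout libraries.

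No member passed the test. By edgeR's quasi-likelihood test with Benjamini-Hochberg adjustment over all 15712 genes, 0 of 36 members had an adjusted p under 0.05, and the background was 0.00636% of all genes, which is Fbn1 alone. DESeq2 and limma-voom with sample weights also called 0 members. Of the 36 members, 17 lay higher and 19 lower in knockout, with a median log2 fold change of -0.04 beside 0.01 over all genes tested. At an unadjusted p under 0.05 there were 3 members lower, Creb3l1, Asns and Pdia6, and 0 higher, where 7.12% of all genes lay lower and 3.37% higher. The groups did not overlap for 4 members, all lower in knockout (Pdia4, Pdia6, Dnajb11 and Syvn1), beside 6.22% of all genes lower and 5.66% higher. With upper-quartile scaling there were 6 members lower and 0 higher at an unadjusted p under 0.05, where 8.34% of all genes lay lower and 2.87% higher. With no filter on low counts 5 members were lower, against 5.89% of all genes (9.22% in either direction), and with limma-voom and sample weights 10 members passed that threshold, 6 lower and 4 higher, against 25.2% of all genes. The authors' deposited table, whose 1643 rows are 2.96% of the matrix rows, lists the same 3 members. Their log2 fold changes there were -1.36 for Creb3l1, -0.59 for Asns and -0.48 for Pdia6. That table comes from the same counts, and its rows reach an unadjusted DESeq2 p of 0.05, so it is not separate support. At that threshold the DESeq2 fit held 3 of 36 members, beside 9.83% of the genes tested.

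**Figure D2:**
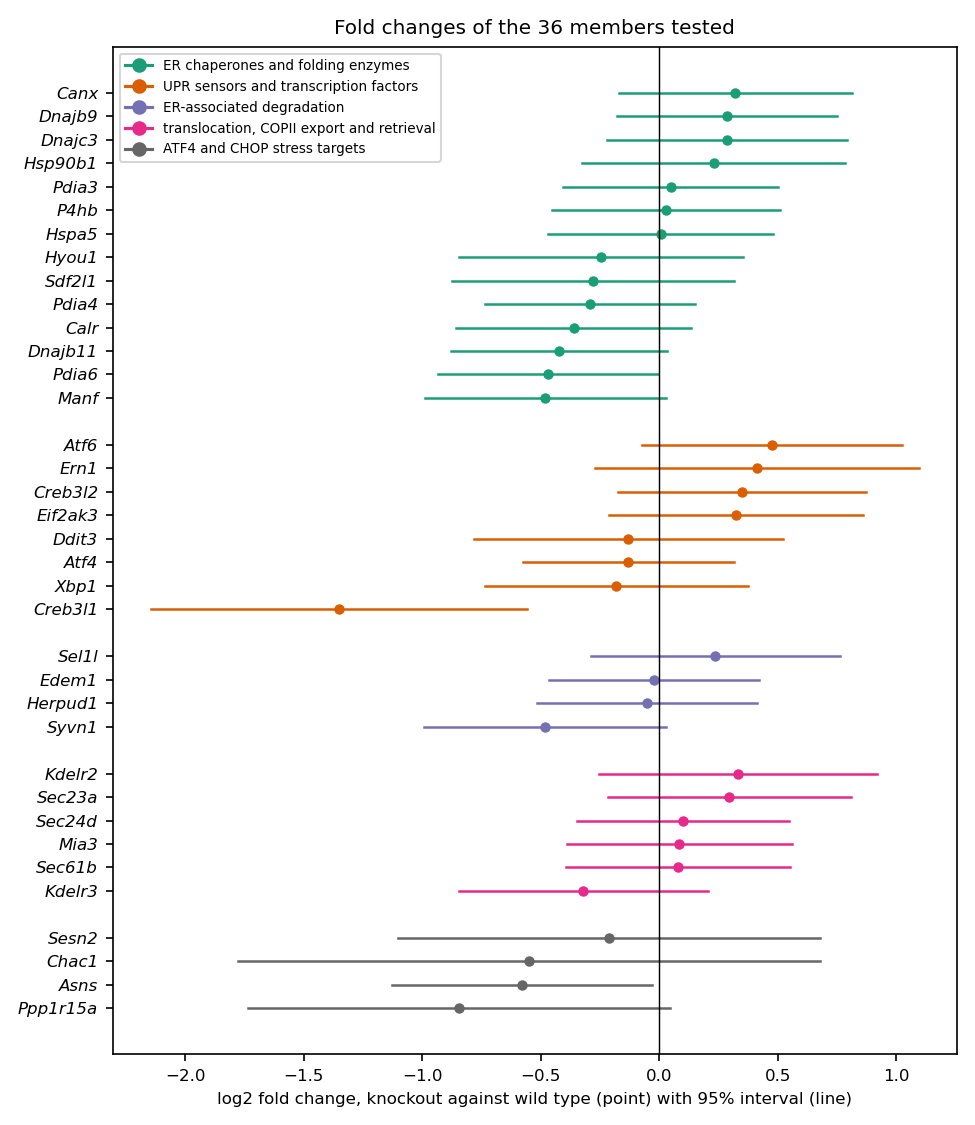
log2 fold change (knockout over wild type) for the 36 members tested, by role, with the 95% interval of the edgeR fit as a line. The interval lies wholly below 0 for Creb3l1, Asns and Pdia6 and includes 0 for the other members.

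Several facts of the libraries bear on these values. Fbn1, the targeted gene, was at 10.04, 6.75 and 7.10 CPM in knockout and at 119, 84.7 and 63.5 CPM in wild type, a log2 fold change of -3.48 (SE 0.29, edgeR adjusted p = 1.03e-04). Total counts lay between 7209217 and 10316017. WT-795 stood apart from the other wild types: its level lay nearer the knockout mean than the mean of the other 2 wild types for 31 of 36 members, against 9 for WT-596 and 7 for WT-597, and the share over all genes tested was 74.8%. The summed level of the 13 mitochondrially encoded genes was 69281 CPM in WT-795, 35650 and 26835 CPM in WT-596 and WT-597, and between 60700 and 74951 CPM in knockout. Xist counts were 6221 in mut-596 and 4024 in mut-597 and at most 4 in the other 4 libraries. High Xist counts thus occurred only in knockout, with mut-795 the only knockout library without them. Differences that go with Xist and with genotype are therefore partly confounded in this comparison. Perichondrium and fibroblast markers summed to 19947 to 21568 CPM in knockout and 20620 to 25536 CPM in wild type, so the labelled tissue's markers were well detected, while chondrocyte markers summed to at most 517 CPM. Of the 10 perichondrium and fibroblast genes, 7 lay higher and 3 lower in knockout (median log2 fold change 0.13). The sums include Col1a1, which was lower in knockout and reached 13025 CPM in 1 library. Tendon markers, lower in knockout for 5 of 6 genes, summed to 560 to 679 CPM in knockout and 681 to 919 CPM in wild type. Skeletal muscle markers were lower in knockout for 11 of 12 genes, with summed levels of 2615 to 5281 CPM in knockout and 3540 to 11629 CPM in wild type. Schwann cell markers were higher in knockout for 4 of 5 genes (median log2 fold change 0.85), with summed levels of 204 to 315 CPM in knockout and 208 to 224 CPM in wild type. Endothelial markers were higher for 2 of 5 genes, at 139 to 172 CPM in knockout and 138 to 164 CPM in wild type. The part of these cell types in the members' values was not tested, apart from the muscle covariate. In these bulk libraries, fewer cells of a type and less RNA per cell cannot be told apart.

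The fold change also followed the GC content of the transcript. Across the 36 members Spearman's rho was -0.54, and across all 15701 genes tested with a GC value it was -0.62. These are descriptions, since the genes share the same 6 libraries. The 18 members with GC content at or above the members' median of 50.3% had a median log2 fold change of -0.23, and the 18 below it had 0.16. With a GC trend removed from each library, rho among the members was 0.03 and the median log2 fold change of the members -0.05.

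**Figure D3:**
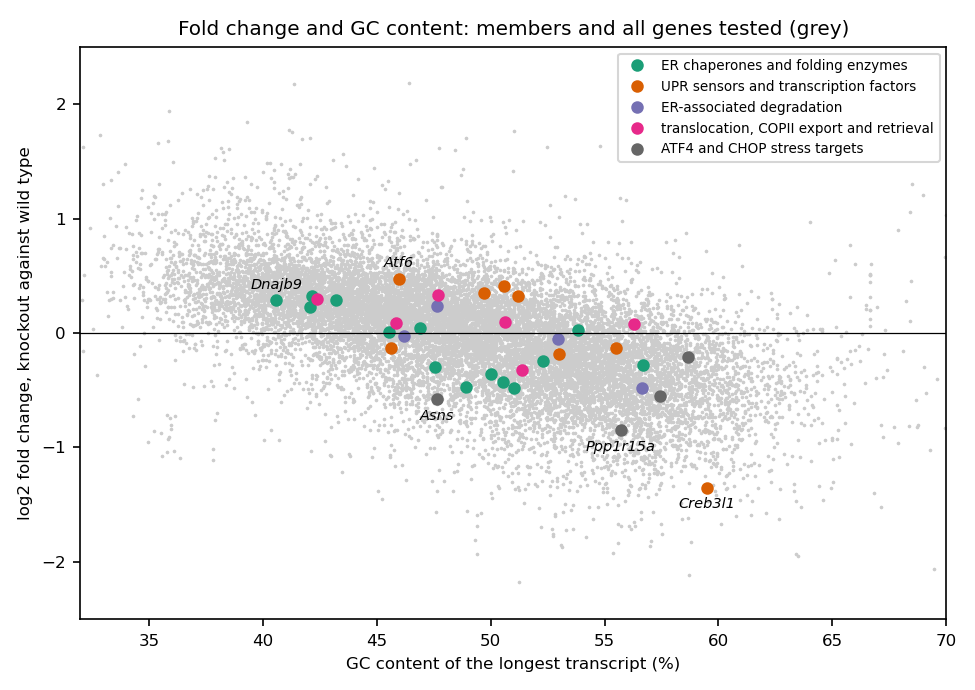
log2 fold change (knockout over wild type) against the GC content of the longest transcript, for the members (coloured by role) and all genes tested (grey; the axes leave out some grey points). Members follow the downward slope of all genes, with Creb3l1 at 59.5% GC and a log2 fold change of -1.35 at its lower edge.

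Among the 14 chaperones and folding enzymes, 7 lay higher and 7 lower, with a median log2 fold change of -0.12. Their summed level ranged from 2019 to 2376 CPM in knockout and from 1968 to 2331 CPM in wild type, so the groups overlapped. Hspa5, the gene most often read as a sign of ER stress, was at 247, 182 and 231 CPM in knockout. In wild type it was at 187, 250 and 221 CPM, nearly the same range. Its log2 fold change was 0.01 with a 95% interval from -0.47 to 0.48, so the fit leaves room for a change of up to 1.40-fold higher or 1.39-fold lower. P4hb was at 527, 479 and 453 CPM in knockout and 504, 393 and 534 CPM in wild type, with overlapping groups and a log2 fold change of 0.03 (SE 0.22, edgeR adjusted p = 0.964).

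Of the 14 folding genes, 3 had groups that did not overlap, all lower in knockout, beside 6.22% of all genes lower and 5.66% higher. Pdia6, which encodes a disulfide isomerase that binds BiP, was at 84.1, 79.9 and 84.4 CPM in knockout and 111, 139 and 94.6 CPM in wild type. The knockout libraries lay close together, and the nearest wild type was WT-795. Its log2 fold change was -0.47 (SE 0.22, unadjusted p = 0.0467, edgeR adjusted p = 0.471). The gene spans 17266545 to 17284770 of chromosome 12 (GRCm38, plus strand). Dnajb11, a BiP co-chaperone, was at 25.5, 26.7 and 25.8 CPM in knockout and 37.1, 38.1 and 29.2 CPM in wild type. Again WT-795 was the lowest wild type, and the log2 fold change was -0.42 (SE 0.21, edgeR adjusted p = 0.478). Pdia4, another disulfide isomerase, was at 39.2, 41.7 and 37.9 CPM in knockout and 51.2, 52.0 and 42.3 CPM in wild type, with mut-597 and WT-795 almost level. The fit gave a log2 fold change of -0.29 (SE 0.21, edgeR adjusted p = 0.545). Pdia6 and Dnajb11 overlap a gene on the other strand (Atp6v1c2 and Gm30505), and the counts may not separate the pair.

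The other folding genes spread on both sides of 0. Manf, a secreted ER stress factor, was at a log2 fold change of -0.48, Calr at -0.36, the BiP partner Sdf2l1 at -0.28 and the nucleotide exchange factor Hyou1 at -0.25. On the higher side, Canx, the membrane-bound lectin chaperone, was at 0.32, the BiP co-chaperones Dnajb9 and Dnajc3 at 0.29 each, Hsp90b1 at 0.23 and Pdia3, the isomerase that works with Calr and Canx, at 0.05. Canx was at 320, 294 and 288 CPM in knockout against 205 and 210 CPM in WT-596 and WT-597, with WT-795 at 309 CPM. The paired lectin chaperones stood on opposite sides of 0, with intervals from -0.86 to 0.13 for Calr and from -0.17 to 0.81 for Canx. With the GC trend removed, Calr was at -0.32 and Canx at 0.041. Of the 7 members with an ERSE match, 3 lay lower and 4 higher, between -0.48 for Syvn1 and 0.32 for Canx, with a median of 0.01 beside -0.04 for the 24 tested members that had a window and no match.

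Among the 8 sensors and transcription factors, 4 lay higher and 4 lower, with a median log2 fold change of 0.10. The 3 sensor genes were all on the higher side. Atf6, a membrane-bound transcription factor, was at 17.3, 12.6 and 14.7 CPM in knockout and 10.2, 8.78 and 13.3 CPM in wild type, a log2 fold change of 0.48 (interval -0.07 to 1.02). Ern1, which encodes the kinase and nuclease IRE1, was at 0.41 and Eif2ak3, which encodes the kinase PERK, at 0.32. The groups overlapped for all 3. Xbp1, the messenger spliced by IRE1, was at 69.6, 96.1 and 123 CPM in knockout and 143, 97.0 and 88.1 CPM in wild type, a log2 fold change of -0.18 (SE 0.26, edgeR adjusted p = 0.761). Counts per gene do not separate spliced from unspliced Xbp1. Atf4, whose protein is controlled mainly at translation, was at 69.2, 65.7 and 71.5 CPM in knockout and 64.2, 78.5 and 83.6 CPM in wild type, a log2 fold change of -0.13. Ddit3, which encodes CHOP, was at 7.53, 10.2 and 5.86 CPM in knockout and 6.17, 10.4 and 9.15 CPM in wild type, at -0.13 with an interval from -0.78 to 0.52.

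Creb3l1 had the largest difference of the 36 members tested. It encodes OASIS, a membrane-bound transcription factor of bone-forming and other secretory cells that is cleaved on ER stress and acts on collagen I. It was at 22.8, 38.5 and 26.8 CPM in knockout and at 91.4, 104 and 29.2 CPM in wild type. WT-596 and WT-597 stood above every knockout library, and WT-795 lay inside the knockout range. The knockout mean was 29.4 ± 8.16 CPM and the wild-type mean 74.8 ± 39.9 CPM (SD, n = 3), 2.54-fold lower in knockout. The log2 fold change was -1.35 (SE 0.37, interval -2.14 to -0.56), with an unadjusted p of 0.00251 and an edgeR adjusted p of 0.459. The gene (ENSMUSG00000027230) spans 91982328 to 92024502 of chromosome 2 (GRCm38, minus strand).

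With 1 of the other 5 libraries left out, Creb3l1 lay between -1.60 and -1.08, with edgeR adjusted p from 0.524 to 0.910. Removing WT-795 gave Creb3l1 a log2 fold change of -1.75 and an edgeR adjusted p of 0.00242. WT-795 is the wild type inside the knockout range of Creb3l1, so its removal widens the gap by construction. A p from a fit without WT-795 is therefore not separate support. In that fit 9.08% of all genes had an adjusted p under 0.05 (5.73% lower), and 2 of 36 members did, Creb3l1 and Ppp1r15a. With no filter on low counts the adjusted p of Creb3l1 was 9.05e-05, in a fit that called 0.845% of 31958 genes (0.742% lower). There the SE was 0.25 for Creb3l1 and 0.25 for Hspa5, beside 0.37 and 0.22 with the filter. The spread of Creb3l1 among its own libraries thus hardly entered that p. With the GC trend removed its log2 fold change was -0.88, and with a covariate for muscle markers -0.92 (edgeR adjusted p = 0.762 and 0.887). With the GC trend removed and WT-795 left out, a setting added after seeing the data, it was -1.17 (edgeR adjusted p = 0.0190). In the mast cell and macrophage lists WT-795 also lay below the other wild types. The same held for the summed muscle, perichondrium and early-response markers, while WT-795 was the highest wild type for the chondrocyte and endothelial sums. Mast cell markers, lower in knockout for 4 of 5 genes, summed to 91.6, 105 and 133 CPM in knockout and to 243, 188 and 106 CPM in wild type. Macrophage markers, lower for 4 of 6 genes, summed to between 106 and 109 CPM in knockout and to 171, 150 and 101 CPM in wild type. Osteoblast markers, lower for 7 of 8 genes, summed to between 2275 and 3354 CPM in knockout and between 2894 and 3388 CPM in wild type. No gene of the mast cell, macrophage and osteoblast lists was at 0 in all libraries, and the part of these 3 cell types in the result was not tested. Markers of antibody-secreting B-lineage cells, known for a large ER, summed to at most 11.7 CPM, and Mzb1 was at 0 in all 6 libraries.

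**Figure D4:**
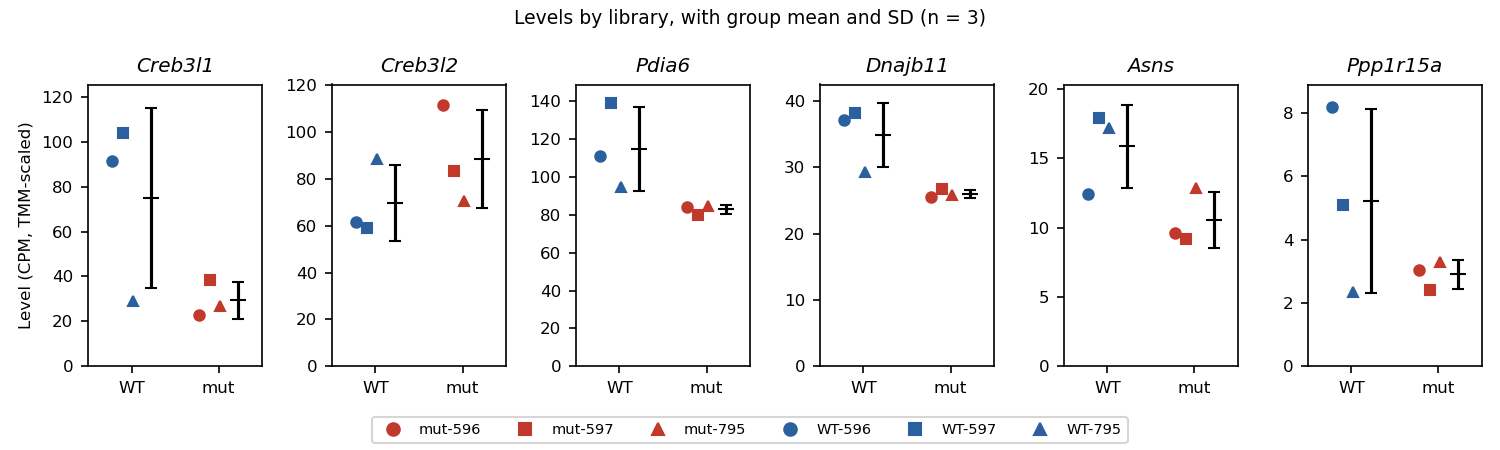
Level in CPM by library for 6 members, with the group mean and SD beside the points (n = 3; blue, wild type; red, knockout; axes start at 0). WT-795 (blue triangle) lies in or next to the knockout range for Creb3l1, Creb3l2, Pdia6, Dnajb11 and Ppp1r15a, and with WT-597 above it for Asns.

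Creb3l2, the paralog of Creb3l1, which encodes BBF2H7, a regulator of COPII genes in cartilage, lay on the other side of 0. It was at 111, 83.4 and 70.7 CPM in knockout and 61.6, 58.8 and 88.4 CPM in wild type, a log2 fold change of 0.35 (interval -0.17 to 0.87). The ratio of Creb3l1 to Creb3l2 counts within a library does not depend on the scaling between libraries. A GC trend of a library can still move it, since the GC content was 59.5% for Creb3l1 and 49.7% for Creb3l2. Without GC correction the ratio was 0.205, 0.462 and 0.380 in knockout and 1.48, 1.77 and 0.331 in wild type. The ratio is one of reads and not of levels per length. WT-596 and WT-597 had the highest ratios, and WT-795 lay inside the knockout range. This ratio was chosen after the values were seen.

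Of the 4 genes of ER-associated degradation, which returns misfolded proteins to the cytosol, 1 lay higher and 3 lower (median -0.04). Syvn1, the ubiquitin ligase HRD1, was at 13.3, 16.5 and 11.1 CPM in knockout and 20.4, 19.6 and 16.9 CPM in wild type, without overlap between the groups. The log2 fold change was -0.48 (SE 0.24, edgeR adjusted p = 0.475). It was -0.15 with the GC trend removed and -0.078 with WT-795 also left out. Syvn1 overlaps Mrpl49 on the other strand. Sel1l, the scaffold of the same ligase complex, was at 106, 92.2 and 78.6 CPM in knockout and 61.4, 68.1 and 106 CPM in wild type, at 0.24 (SE 0.25, edgeR adjusted p = 0.669). Herpud1, a UPR-induced component of the complex, had the highest wild-type level of the 4 genes per length, 17.4 ± 2.64 CPM per kilobase. It was at 40.8, 42.9 and 33.6 CPM in knockout and 46.2, 41.3 and 33.9 CPM in wild type, at -0.05 (SE 0.22, edgeR adjusted p = 0.925). The mannosidase-like Edem1 was at -0.02.

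Among the 6 genes of translocation, COPII export and retrieval, 5 lay higher and 1 lower, with a median log2 fold change of 0.09. Kdelr2 was at 659, 824 and 705 CPM in knockout and 492, 417 and 831 CPM in wild type, and WT-795 was the highest of the 6 libraries. Its log2 fold change was 0.33 (SE 0.27, edgeR adjusted p = 0.596), and 0.13 without WT-597. Kdelr3, a second receptor of the family and the only member of this role below 0, was at 75.7, 122 and 126 CPM in knockout and 162, 125 and 117 CPM in wild type, at -0.32. Kdelr2 counts were 8.71, 6.76 and 5.60 times those of Kdelr3 in the knockout libraries. They were 3.04 and 3.34 times in WT-596 and WT-597 and 7.09 times in WT-795, a ratio also chosen after the values were seen. The GC content was 47.7% for Kdelr2 and 51.4% for Kdelr3, so a GC trend of a library can move this ratio too. The COPII coat genes Sec23a and Sec24d were at 0.29 and 0.10, the procollagen export receptor Mia3 at 0.08 and Sec61b at 0.08. Sec23a was at 111, 129 and 140 CPM in knockout and 93.0, 80.1 and 137 CPM in wild type. The groups overlapped for all 6 genes.

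The targets of ATF4 and CHOP were low and lay on the lower side. All 4 that were tested had negative log2 fold changes, with a median of -0.57, and 0 of the 4 had groups that did not overlap. Without WT-596 the median was -0.30, and with a covariate for Xist -0.19. The 5 genes together, Trib3 included, summed to 15.5, 15.6 and 20.4 CPM in knockout and to 26.3, 28.0 and 22.9 CPM in wild type. The sums did not overlap, but Asns was the largest part of each, and no share over other gene lists was taken for such sums. Asns, asparagine synthetase, was at 9.64, 9.15 and 12.9 CPM in knockout and 12.4, 17.9 and 17.2 CPM in wild type, so that only mut-795 and WT-596 overlapped. It had a log2 fold change of -0.58 (SE 0.26, unadjusted p = 0.0402, edgeR adjusted p = 0.466), and WT-795 stood with WT-597 here, unlike in Creb3l1. With the GC trend removed it was at -0.64. Ppp1r15a, which encodes GADD34, the phosphatase subunit that restores translation after stress, was at 3.04, 2.40 and 3.29 CPM in knockout and 8.17, 5.10 and 2.36 CPM in wild type, with WT-795 the lowest of all. The difference was -0.85 on the log2 scale (SE 0.42, edgeR adjusted p = 0.475), and -1.20 without WT-795 (edgeR adjusted p = 0.0487). As WT-795 was the lowest library, leaving it out widens the gap by construction. The log2 fold change of Ppp1r15a was -0.38 without WT-596 (edgeR adjusted p = 0.856) and -0.49 with the GC trend removed. With the GC trend removed and WT-795 left out it was -0.73 (edgeR adjusted p = 0.315). Chac1, a glutathione-degrading enzyme, was at -0.55 with a wide interval from -1.78 to 0.68 on 81 counts over all libraries. Sesn2, a stress-induced regulator of mTORC1, was at -0.21 on 100 counts. Trib3, a pseudokinase induced by CHOP, had 45 counts over all libraries and lay between 0.617 and 0.900 CPM in knockout and between 0.755 and 1.11 CPM in wild type. The median of the 4 tested genes was -0.32 with the GC trend removed, where Sesn2 was at 0.19, and early-response genes, which handling of tissue can raise, were lower in knockout for 11 of 11 genes, at 416 to 488 CPM in knockout and 455 to 744 CPM in wild type. The part of that response in these values was not tested.

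**Figure D5:**
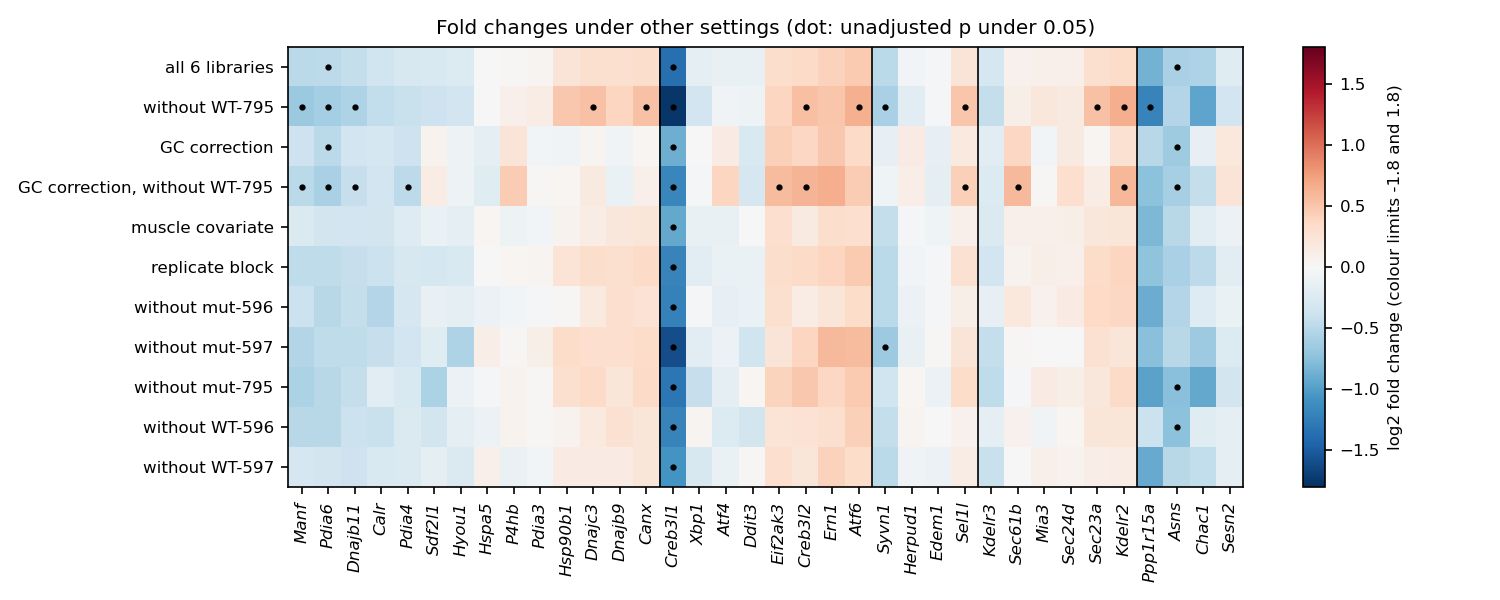
log2 fold changes of the 36 members (columns, by role) in the fit of all 6 libraries and in 10 other fits (rows), in colour from blue (lower in knockout) to red (higher), with a dot where the unadjusted p is under 0.05. Without WT-795 there were 13 such members, 7 higher and 6 lower, against 3 with all libraries.

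Leaving out WT-795 brought more members past the unadjusted threshold, in both directions. WT-795 lay nearer the knockout mean for 31 of 36 members, so its removal widens most of the differences by construction. At an unadjusted p under 0.05 there were 7 members higher (Kdelr2, Atf6, Creb3l2, Sec23a, Dnajc3, Canx and Sel1l) and 6 lower (Creb3l1, Ppp1r15a, Manf, Pdia6, Syvn1 and Dnajb11), in a fit where 13.8% of all genes lay higher and 15.7% lower at that threshold. The largest on the higher side were Kdelr2 at 0.66 and Atf6 at 0.63, both with edgeR adjusted p above 0.05 (0.0664 and 0.121). The groups did not overlap for 22 of 36 members with WT-795 left out, which sets 3 knockout against 2 wild-type libraries, beside 47.4% of all genes.

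Other genes of the same pathways were taken from lists of 168 names, of which 165 had a row and 156 were tested. Of these 156, 64 lay higher and 92 lower, with a median log2 fold change of -0.10, and 0 had an edgeR adjusted p under 0.05. At an unadjusted p under 0.05 there were 21 lower and 1 higher, beside 7.12% and 3.37% of all genes. The groups did not overlap for 21 lower and 4 higher, beside 6.22% and 5.66% of all genes. The lists were chosen with earlier results of these data known, so these counts are not independent support. Among 31 other folding genes, 12 lay higher and 19 lower. The genes with the smallest p were Rcn3, a calcium-binding ER protein that helps collagen folding, at -1.13, Pdia5 at -0.82 and the prolyl isomerase Fkbp2 at -0.79. Rcn3 was at 77.0, 138 and 107 CPM in knockout and 311, 290 and 105 CPM in wild type, with WT-795 inside the knockout range as for Creb3l1. Among 20 other UPR regulators, 10 lay on each side. The groups did not overlap for 5 lower and 1 higher of them, beside 6.22% of all genes lower and 5.66% higher. At an unadjusted edgeR p under 0.05 there were 3 lower and 1 higher. Atf3, a stress-induced transcription factor, was at 1.32, 0.450 and 1.23 CPM in knockout and 3.23, 3.21 and 3.60 CPM in wild type, without overlap and with WT-795 the highest. Its log2 fold change was -1.69 (SE 0.45, edgeR adjusted p = 0.459), the stress gene Nupr1 was at -1.14, and Mbtps2, the protease that releases ATF6, at 0.60.

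Among 23 other ATF4 target genes, 17 lay lower and 6 higher, with a median of -0.29, and the groups did not overlap for 6, all lower, beside 6.22% of all genes lower and 5.66% higher. The median was -0.15 with the GC trend removed, -0.39 without WT-795 and -0.06 with both steps. The enzymes Pycr1 and Shmt2 of proline and serine metabolism were at -0.75 and -1.06, and the amino acid transporter subunit Slc3a2 at -0.71. Pycr1 was at 18.1, 18.3 and 20.0 CPM in knockout and 45.6, 27.0 and 21.8 CPM in wild type. The remaining lists lay closer to 0. Of 34 other COPII, COPI and retrieval genes, 13 lay higher and 21 lower (median -0.08), with Copz1 at -0.75, Golga2 at -0.56 and Sec31a at -0.49. Of 29 other translocation and glycosylation genes, 15 lay higher and 14 lower (median 0.01), with Dad1, Ddost and Srp68 at -0.62, -0.59 and -0.64. Of 19 other degradation genes, 8 lay higher and 11 lower (median -0.05), with Os9 at -0.60, Aup1 at -0.44 and Edem2 at -0.63.

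Procollagens, a main cargo of this machinery in connective tissue, lay on both sides of 0. Of 8 genes, 5 lay higher and 3 lower, with a median log2 fold change of 0.02, and their summed level was between 36400 and 39045 CPM in knockout and between 38121 and 39699 CPM in wild type. Col1a1, a gene on which OASIS is known to act, was at 6863, 7638 and 5213 CPM in knockout and 9283, 13025 and 7118 CPM in wild type, a log2 fold change of -0.58 (SE 0.32, edgeR adjusted p = 0.484). Col1a2, whose chain pairs with that of Col1a1 in collagen I, was at 0.13 (SE 0.30, edgeR adjusted p = 0.861). Col5a1 was at -0.77 and its partner Col5a2 at 0.21. The GC content was 58.9% for Col1a1 and 55.7% for Col1a2, and 58.0% for Col5a1 and 49.6% for Col5a2.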

How the data were processed

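Per the labels, RNA came from a Qiagen micro kit and libraries from Smart-seqV4 and NexteraXT, chemistry that does not mark strand. The authors deposited whole-number counts per gene, not normalized, per the file headers from coordinate-sorted alignments. Per the submitters' processing notes the genome was GRCm38.p6, with DESeq2 as a tool. Strand and multiple-match settings, the annotation and tool versions are not given in the sources used. The authors' deposited table holds log2 fold changes, and 1609 of its 1610 rows matched to the matrix equal a DESeq2 fit within 1e-04.

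Symbols, positions, exonic length and GC content came from GENCODE M21. The test was edgeR 4.0.16 (glmQLFit, glmQLFTest) in R 4.3.3 on the counts, with TMM, filterByExpr and Benjamini-Hochberg adjustment over 15712 genes, two-sided, threshold 0.05. The SE is the log2 fold change over the square root of F, and intervals use 14.45 degrees of freedom. Simulated counts of this knockout comparison (15712 genes) were used as a check. In them 42% of genes changed 2-fold and 92% of those changed 4-fold were recovered, with 6 false calls. Changes of 2- to 16-fold were planted only in genes with a mean log2 CPM over 1. Counts were drawn independently, without a library like WT-795 and without a GC trend. These shares are therefore not the power of the real comparison. Without molecular identifiers, reads are not independent molecules. Total counts of 7209217 to 10316017 limit genes under about 1 CPM. Because the library chemistry does not mark strand, reads of 12 members overlapped by a gene on the other strand are uncertain. Among these members are Pdia6, Dnajb11, Manf, Syvn1, Ddit3 and Ppp1r15a.

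Alternatives were RLE and upper-quartile scaling, other filters, DESeq2 1.42.0, limma-voom with sample weights (limma 3.58.1), a replicate block, a GC trend removed from each library by lowess, covariates for Xist and muscle markers, leaving out mitochondrial, ribosomal and Lars2 genes, and leaving out each library. The members and lists were chosen with earlier results of these data known. All 37 members are named, with full statistics for those with an unadjusted p under 0.05, without overlap of the groups, or of the highest level in their role (in CPM or per kilobase), and from each list of other pathway genes the 3 with the smallest p.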

Additional observations from a re-analysis of the deposited data

How the results depend on the processing

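The titles share 3 numbers across groups, and the labels do not say what these mark. Deviations from the group means of same-numbered libraries correlated at -0.177, 0.244 and -0.201 over genes. For libraries of different numbers the correlations ran from -0.287 to 0.380. So few libraries cannot decide whether the numbers pair them. With the replicate block 1 gene passed, 0 members passed and 1 member had an unadjusted p under 0.05 (9.46% of all genes). Block with GC correction gave 4 genes. The genes that passed numbered 270 with no filter, 0 with the Xist covariate (edgeR, 490 genes at an unadjusted p under 0.05, Fbn1 at -3.65 and adjusted p = 0.104), and 1 to 1517 with a library left out (12 without mut-795, 1517 without WT-795, and 100 when the GC trend was also removed). Members that passed numbered 1 with no filter and 0 to 2 with a library left out, 2 without WT-795 and 1 with the GC trend removed as well. Members at an unadjusted p under 0.05, each with the share of all genes, numbered 6 with upper-quartile scaling (11.2%), 5 with no filter (9.22%), 6 with a filter of 5 CPM in 3 libraries (11.2%, chosen after seeing the data, since a filter of 1 CPM kept more genes than filterByExpr), 10 with limma-voom and sample weights (25.2%) and 1 with the muscle covariate (4.93%). With a library left out they numbered 1 (4.54% without WT-597, 4.7% without mut-596) to 13 (29.5% without WT-795), and 11 without WT-795 with the GC trend also removed (17%). Without overlap of the groups there were 5 members (16.3% of all genes, without WT-597) to 22 (47.4%, without WT-795), with 6 to 10 members and 16.7% to 23.5% of all genes for the other libraries. The cause of these shifts was not tested. The median over the members stayed between -0.08 and 0.02 under the 20 alternatives.

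Of the 36 members, 21 kept their sign under every alternative that tested them, 12 lower and 9 higher, and 15 changed sign in at least 1. Log2 fold changes that changed sign were as follows. With the GC trend removed the value was 0.15 for Atf4, -0.066 for Dnajb9, 0.14 for Herpud1, -0.057 for Hsp90b1, -0.16 for Hspa5, -0.046 for Mia3, -0.045 for Pdia3, 0.063 for Sdf2l1, 0.19 for Sesn2 and 0.0098 for Xbp1. With the replicate block and the GC trend removed the value was 0.17 for Atf4, -0.067 for Dnajb9, 0.14 for Herpud1, -0.06 for Hsp90b1, -0.15 for Hspa5, -0.041 for Mia3, -0.044 for Pdia3, 0.016 for Sdf2l1, 0.17 for Sesn2 and 0.005 for Xbp1. With the GC trend removed and WT-795 left out, a setting chosen after seeing the data, the value was 0.39 for Atf4, -0.12 for Dnajb9, 0.12 for Herpud1, -0.21 for Hspa5, 0.13 for Sdf2l1 and 0.23 for Sesn2. With limma-voom and sample weights the value was 0.15 for Ddit3. With the Xist covariate, under which mut-795 is the one knockout library compared, the value was 0.12 for Edem1, -0.061 for Mia3, -0.075 for P4hb, 0.13 for Sdf2l1 and 0.17 for Xbp1. With upper-quartile scaling the value was -0.029 for Hspa5 and -0.0062 for P4hb. With no filter the value was -0.0086 for Hspa5. With the 1 CPM filter the value was -0.0073 for Hspa5. With the 5 CPM filter the value was -0.032 for Hspa5 and -0.0084 for P4hb. With the muscle covariate the value was -0.092 for P4hb and -0.049 for Pdia3. With 1 library left out, values ranged from -0.36 to 0.041 for Ddit3, -0.11 to 0.027 for Edem1, -0.18 to 0.046 for Herpud1, -0.10 to 0.12 for Hspa5, -0.069 to 0.20 for Mia3, -0.11 to 0.095 for P4hb, -0.046 to 0.13 for Pdia3, -0.0067 to 0.16 for Sec24d, -0.020 to 0.19 for Sec61b and from -0.41 to 0.050 for Xbp1.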
